A study of Mus musculus with 6 samples.

Results

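The genes described here are the expressed members of the mouse ZFP zinc finger family, 214 of the 37757 rows of the authors' deposited table. They were chosen by name and level: a row naming 1 gene whose symbol is Zfp followed by a digit, with at least 3 FPKM attached or suspended (FPKM are fragments scaled to transcript length and library size). Zfp36, Zfp36l1 and Zfp36l2 were left out, since they encode mRNA decay factors of another kind. Of 350 ZFP rows at any level, 214 met the level and all 214 had been tested by the authors. Since the level was read from the same comparison, everything said below about attached and suspended values is a description.

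The cells were kidney epithelial cells from mice aged 8 weeks of the strain C57/Bl6J, and all of them carried the genotype Bim-/- Bmf-/-, in which 2 genes for death-promoting BH3-only proteins are disrupted. The attached group was grown on its substrate and the suspended group was held off it for 4 h, with 3 libraries each. Suspended libraries carry titles naming anoikis, death after loss of anchorage, and the comparison asks what detachment does to transcripts in cells of this genotype. No wild-type cells were compared, and nothing in the labels says that a group's libraries were separate cultures or animals, so the authors' p-values may measure technical spread only. Each gene has 1 deposited FPKM per condition, so no value per library and no standard deviation can be given, and depth is unknown. In bulk RNA, fewer cells of a type and less RNA per cell cannot be told apart.

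Most ZFP proteins carry C2H2 fingers, short folds in which pairs of cysteine and histidine hold a zinc ion and which can read DNA. Many also carry a KRAB box, which recruits the scaffold protein TRIM28 (KAP1) and through it histone methylation, HP1 proteins and the NuRD complex, and which is best known for silencing transposable elements and guarding imprinted genes. KRAB zinc finger genes lie in tandem clusters that grew by duplication. Other ZFP proteins act outside repression, in RNA handling, ribosome quality control or the spindle, and share only the name.

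The proteins of 213 members were matched to the GENCODE M21 annotation, 3 of them through a newer symbol, and Zfp125 was not matched. Of these, 190 had 3 or more C2H2 fingers, with a median of 9 fingers and a maximum of 36 in Zfp142. In the whole annotation 2.92% of genes had 3 or more fingers. A KRAB box was found in 98 of the 213 proteins (46.0%), against 1.48% of all genes, and these had a median of 12 fingers against 7 in the other 115. A SCAN box, a dimerization domain, was found in 8. No finger of this spacing was found in 8 members: Zfp365, Zfp839, Zfp935, Zfp503, Zfp703, Zfp330, Zfp259 and Zfp185. Zfp185 encodes a LIM domain protein of the actin cytoskeleton and Zfp259 (Zpr1) a protein with zinc-binding modules of another kind, so the name alone brings in genes that are not C2H2 factors. The annotated Zfp935 protein had 150 residues.

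Members' promoters differed in base composition from those of other expressed genes. RefSeq promoters (GRCm38.p6, from 250 bases before to 50 after the start) were matched for 178 members, and 7724 single-gene rows of at least 3 FPKM served for comparison. The median number of CG pairs was 15 in members and 10.5 in the 88 KRAB members, against 22 in expressed genes and 7 in all 27025 promoters. The GC box GGGCGG, read on both strands, was present in 51.7% of members and 42.0% of KRAB members, against 68.2% of expressed genes and 35.9% of all promoters. The CCAAT box CCAAT stood in 47.2% of members and 56.8% of KRAB members, against 38.9% of expressed genes. These are shares of letters and not of bound sites, and no test was run on them. In all 21 motifs were searched, with the calls in view, and those printed were picked afterwards.

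The 250 bases before the start of the member that rose most and of the neighbouring pair that rose together are shown, since the results begin with them. Capitals mark the cyclic AMP response element TGACGTCA, which reads the same on both strands. It was picked for display after these sequences had been read, from the 21 motifs searched, and the 3 promoters were picked for their genes' values, so its presence in 2 of them is no support for anything. They come from RefSeq (GRCm38.p6), are written 5′ to 3′, and lie at chr5:145231492-145231741 (plus strand), chr13:67451625-67451874 (minus strand) and chr13:67484254-67484503 (minus strand).
Zfp655: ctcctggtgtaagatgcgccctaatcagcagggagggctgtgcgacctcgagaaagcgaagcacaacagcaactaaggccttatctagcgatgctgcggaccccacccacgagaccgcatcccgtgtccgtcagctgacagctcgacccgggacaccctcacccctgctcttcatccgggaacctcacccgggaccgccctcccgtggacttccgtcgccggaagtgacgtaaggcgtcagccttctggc
Zfp874a: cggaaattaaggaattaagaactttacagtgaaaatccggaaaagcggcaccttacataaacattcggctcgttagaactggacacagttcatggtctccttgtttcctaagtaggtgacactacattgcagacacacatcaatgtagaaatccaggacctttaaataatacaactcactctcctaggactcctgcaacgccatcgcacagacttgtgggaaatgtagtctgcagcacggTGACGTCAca
Zfp874b: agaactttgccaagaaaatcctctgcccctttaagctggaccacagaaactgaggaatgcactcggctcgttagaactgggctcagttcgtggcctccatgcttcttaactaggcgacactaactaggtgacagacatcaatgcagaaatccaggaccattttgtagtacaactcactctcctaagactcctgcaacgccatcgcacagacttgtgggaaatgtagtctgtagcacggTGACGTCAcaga
The promoters of Zfp874a and Zfp874b shared an unbroken run of 45 bases near the start and each held 1 response element, while that of Zfp655 held none and shared no run longer than 7 bases with either. Zfp655 had 21 CG pairs in these 250 bases, Zfp874a 9 and Zfp874b 8. The response element was present in 3.93% of members' promoters, 3.51% of those of expressed genes and 1.88% of all promoters. It was absent from the promoters of Zfp748 and Zfp738, which lie near them on chromosome 13.

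By the authors' deposited table, 85 of the 214 members were called higher in suspension and 27 lower (the authors' q below 0.05), and 102 were not called. Over all 14748 tested rows, 24.7% were called higher and 26.3% lower, and among the 10993 tested rows with at least 3 FPKM in 1 condition 24.0% were called higher and 32.5% lower. As shares, 39.7% of members were called higher and 12.6% lower. The median log2 fold change (suspended over attached) was 0.25 in members (quartiles -0.15 and 0.64), against -0.12 in tested rows of at least 3 FPKM and -0.04 in all tested rows. Changes of at least 2-fold were called in 19 of the 214 members upward and in 6 downward. The same requirement was met by 9.15% (higher) and 7.61% (lower) of tested rows of at least 3 FPKM. The members' share called higher was thus close to that of these rows, and their share called lower was smaller. Of the 19 members, 10 had at least 3 FPKM in suspension only. The plot of attached against suspended FPKM shows a broad band just above the line of equality with few members beyond 2-fold.

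**Figure D1:**
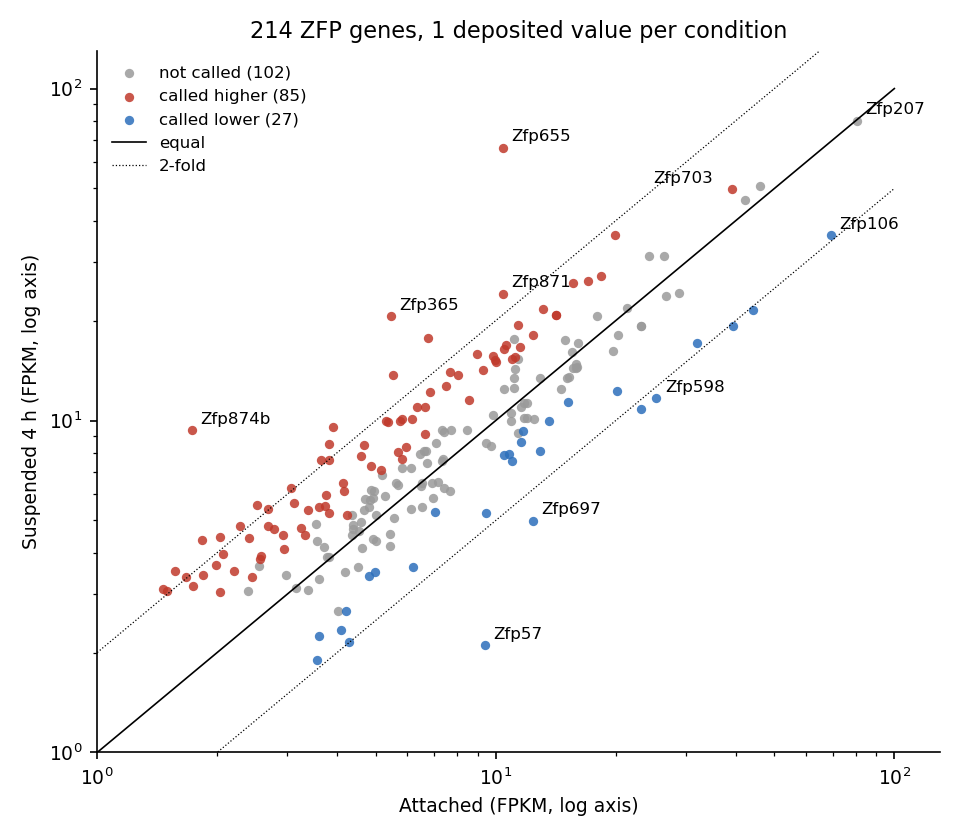
Attached against suspended FPKM of the 214 members on log axes, 1 deposited value per condition, coloured by the authors' call, with a solid line at equality and dotted lines at 2-fold. Of the points, 85 are called higher and 27 lower, and Zfp655, Zfp874b, Zfp365 and Zfp57 lie farthest from the line.

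The level rule itself favours genes that differ when they sit near 3 FPKM. Of the 214 members, 180 had at least 3 FPKM in both conditions, 27 in suspension only and 7 attached only, and those 34 had to be higher or lower by construction. Among the 180, 61 (33.9%) were called higher and 21 (11.7%) lower, with a median log2 fold change of 0.20. Among the 9908 tested rows with at least 3 FPKM in both conditions, 21.5% were called higher and 33.0% lower, with a median of -0.13. The members just inside the threshold by their higher value were Zfp101 (2.03 FPKM attached, 3.05 suspended), Zfp775 (1.50 and 3.07) and Zfp398 (2.39 and 3.07 FPKM). Just outside it were Zfp764 (2.78 and 2.96 FPKM), Zfp551 (2.55 and 2.96) and Zfp93 (2.82 and 2.51 FPKM). Members were modestly expressed, with a median of 6.53 FPKM attached and 7.90 suspended, against 16.7 and 15.9 FPKM in tested rows of at least 3 FPKM.

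Zfp655, a KRAB protein with 6 fingers, rose most (chromosome 5, positions 145231723 to 145247302, plus strand, mm10). It went from 10.4 FPKM attached to 66.4 FPKM suspended per the authors' deposited table, 6.41-fold. That took it from a level near the upper part of the family to 1 of its 6 highest means. This and every other call named from here on has q = 0.000185 in the authors' deposited table, the smallest q there and one shared by 65 members, unless another q is given.

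Zfp874b and Zfp874a, adjacent KRAB genes on the minus strand of chromosome 13, both rose. Zfp874b (positions 67471514 to 67484225) went from 1.73 to 9.33 FPKM per the authors' deposited table, 5.38-fold. Zfp874a (positions 67424549 to 67451624) went from 6.75 to 17.7 FPKM, 2.63-fold, per the authors' deposited table. Their proteins have 10 fingers each and are 92.9% identical over 448 aligned positions. Of all 50-base words in the longest transcript, 11.5% of those in Zfp874a also occur in Zfp874b and 13.6% the other way, so part of their reads could be assigned to either, and how the counting split them is not given in the sources used here.

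Zfp365, a protein known as a p53 target with roles at the centrosome and in genome stability, went from 5.46 to 20.6 FPKM per the authors' deposited table (3.77-fold). Zfp362 went from 5.51 to 13.7 FPKM there (2.49-fold). Zfp827, which is known to bring the NuRD complex to telomeres in some cancer cells, went from 3.91 to 9.58 FPKM (2.45-fold) in the same table. These 3 carry no KRAB box, and the other 9 of the 12 largest rises do. Zfp871 went from 10.4 to 24.1 FPKM (2.31-fold), and Zfp949 from 3.81 to 8.48 FPKM (2.22-fold) per the authors' deposited table. The remaining 5 started below 3 FPKM and so entered through their suspended value: Zfp182, Zfp28, Zfp947, Zfp959 and, already given, Zfp874b. The first 4 of these ended between 3.52 and 5.58 FPKM, 2.19-fold to 2.39-fold higher, in the authors' deposited table.

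**Figure D2:**
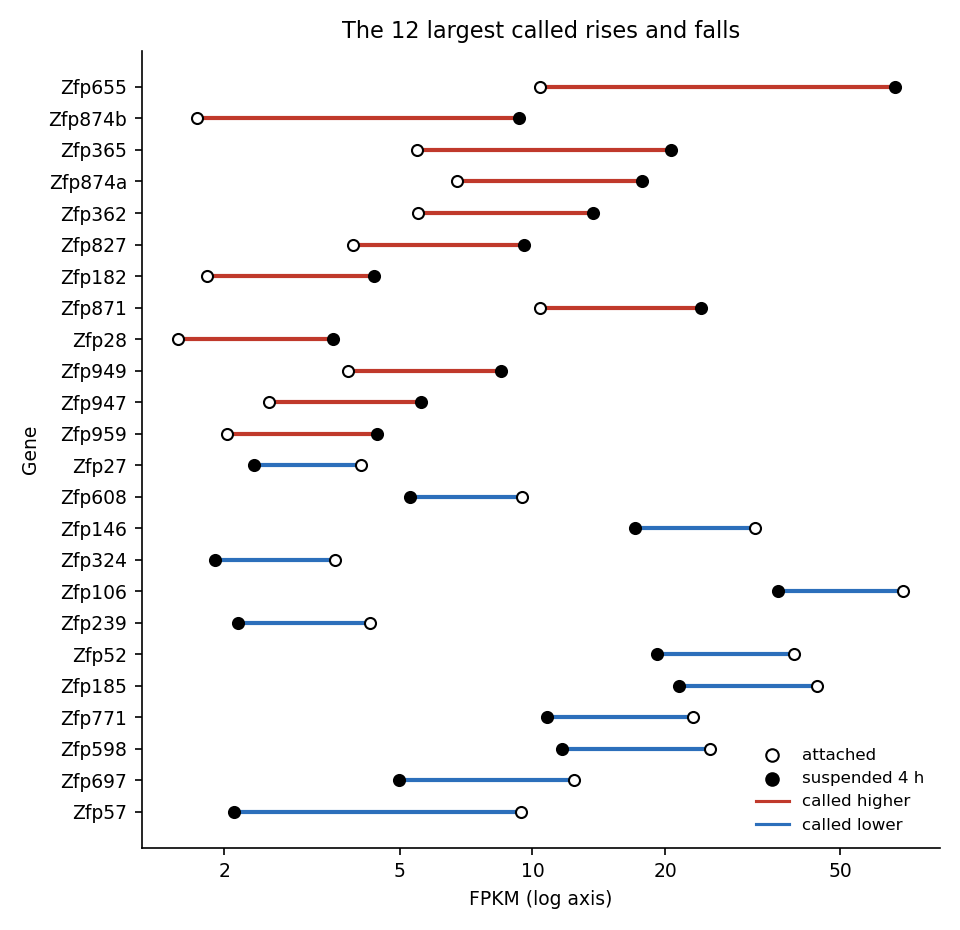
FPKM of the 12 called members with the largest rise and the 12 with the largest fall on a log axis, open circles attached and filled circles suspended, with lines coloured by the authors' call. Zfp655 moved from 10.4 to 66.4 FPKM and Zfp57 from 9.40 to 2.10 FPKM.

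Zfp57 fell most. It encodes a KRAB protein that, with TRIM28, keeps DNA methylation at imprinted loci, and its row spans chromosome 17, positions 37001163 to 37010635 (plus strand). It went from 9.40 FPKM attached to 2.10 FPKM suspended per the authors' deposited table, 4.47-fold lower. The GENCODE gene of Zfp697 overlaps genes of the Hsd3b family on the opposite strand, though its deposited row overlapped no other tested row. Zfp697 went from 12.4 to 4.99 FPKM (2.49-fold lower) per the authors' deposited table. Zfp598, a ubiquitin ligase that senses collided ribosomes, went from 25.3 to 11.7 FPKM there (2.15-fold lower). Zfp771 went from 23.1 to 10.8 FPKM (2.15-fold lower), and Zfp185 from 44.2 to 21.5 FPKM (2.05-fold lower), in the same table. Zfp52, a KRAB protein with 14 fingers, went from 39.3 to 19.2 FPKM (2.05-fold lower) per the authors' deposited table.

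Of the other 6 of the 12 largest falls, Zfp106 stood highest. Zfp106 encodes an RNA-binding protein needed by motor neurons and went from 69.5 to 36.1 FPKM (q = 0.00157) per the authors' deposited table. Zfp146, a small protein made almost only of fingers, went from 32.0 to 17.1 FPKM there. Zfp239 (4.28 to 2.15 FPKM, q = 0.000982), Zfp324 (3.57 to 1.90), Zfp608 (9.45 to 5.28) and Zfp27 (4.09 to 2.33 FPKM) fell by 1.76-fold to 1.99-fold in the authors' deposited table. Zfp57, Zfp239, Zfp324 and Zfp27 were under 3 FPKM suspended and entered through their attached value. Of the 12 largest falls, 4 encode KRAB proteins (Zfp57, Zfp52, Zfp324 and Zfp27).

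The members with the highest mean level changed little apart from Zfp655 and Zfp106. Zfp207 (BuGZ), a spindle protein that loads BUB3 at kinetochores, stood at 80.6 FPKM attached and 80.0 FPKM suspended (q = 0.944) per the authors' deposited table. Zfp664 stood at 46.0 and 50.8 FPKM (q = 0.260), and Zfp706 at 42.3 and 46.2 FPKM (q = 0.338), in that table. Zfp703, a co-repressor known as an oncogene in luminal breast cancer, was called higher, from 39.2 to 49.7 FPKM (q = 0.00463) per the authors' deposited table. Besides Zfp207, the members nearest to no difference were Zfp961 (6.54 and 6.49 FPKM), Zfp873 (3.16 and 3.12) and Zfp948 (3.82 and 3.87 FPKM), with q of 0.929 to 0.974 in the authors' deposited table.

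KRAB members were called higher in 45 (45.9%) and lower in 7 (7.14%) of 98 cases in the authors' deposited table, and 46 were not called. Their median log2 fold change was 0.34 (quartiles -0.00 and 0.74). The 115 members in which no KRAB box was found were called higher in 40 (34.8%) and lower in 20 (17.4%) cases in that table. Their median was 0.17 (quartiles -0.24 and 0.58). Of all tested rows of at least 3 FPKM, 24.0% were called higher and 32.5% lower. KRAB members were the less expressed, with a median of 4.93 FPKM attached against 9.84 FPKM, so more of them entered through 1 condition. Restricted to at least 3 FPKM in both conditions, 26 of 73 KRAB members (35.6%) were called higher and 3 (4.11%) lower, with a median of 0.26. Of 106 others, 35 (33.0%) were called higher and 18 (17.0%) lower, with a median of 0.15. Among all tested rows at that level in both conditions, 21.5% were called higher and 33.0% lower. The share called higher was close in KRAB and other members, and the share called lower differed more. A KRAB pattern tried first, which missed known KRAB proteins such as Zfp90 and was replaced after its split had been seen, gave 78 KRAB members (36 called higher, 5 lower, median 0.34) and 135 others (49 higher, 22 lower, median 0.21) in the authors' deposited table. The difference between these classes was not tested, since genes are not replicates and the level rule read the same contrast. Over the 213 proteins, finger number and log2 fold change had a Spearman correlation of 0.07, which describes genes of the same 2 conditions.

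**Figure D3:**
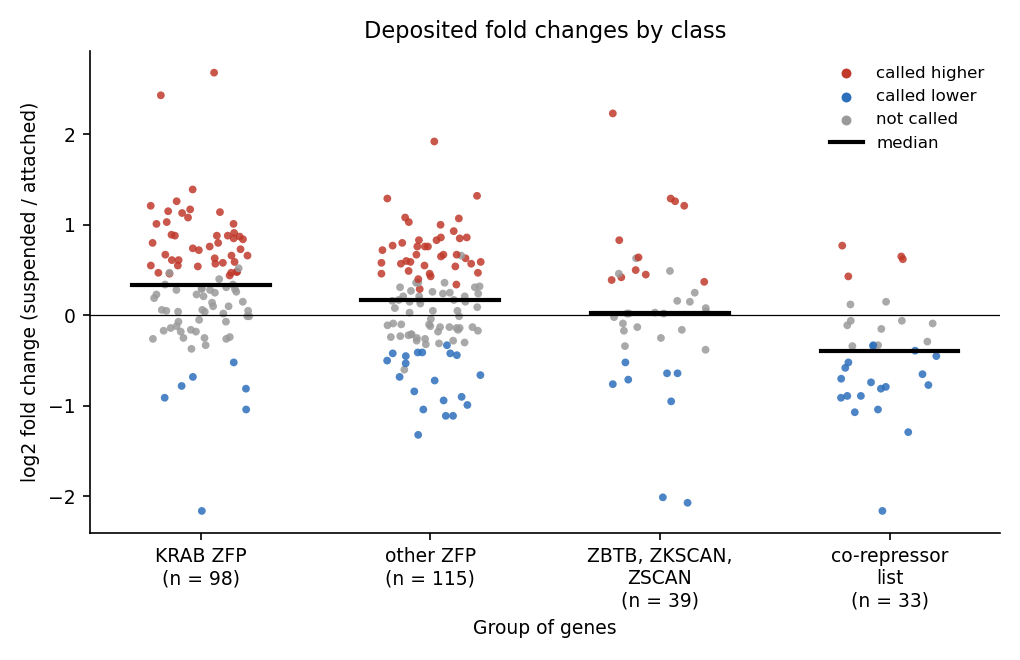
Deposited log2 fold change (suspended over attached) of KRAB members, other members, the relatives ZBTB, ZKSCAN and ZSCAN and the co-repressor list, with 1 point per gene coloured by the authors' call and a black bar at the median. Medians are 0.34, 0.17, 0.03 and -0.39; Zfp57 belongs to the first and the last group and is drawn in both.

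Among KRAB members with described roles, 9 of the 10 listed were members, of which 2 (22.2%) were called higher and 2 (22.2%) lower. Among tested rows of at least 3 FPKM the shares were 24.0% and 32.5%, and with 9 genes nothing is read from these counts. Zfp809, which silences murine leukaemia virus through its primer binding site, went from 9.85 to 15.6 FPKM per the authors' deposited table. Zfp110 (NRIF), a partner of the p75 neurotrophin receptor, went from 11.5 to 16.6 FPKM there. Zfp30 went from 3.61 to 2.25 FPKM per the authors' deposited table, beside the fall of Zfp57. Zfp445, which also guards imprinted loci, stood at 14.9 and 17.5 FPKM (q = 0.0981), and Zfp568, a repressor of a placental Igf2 promoter, at 4.19 and 3.49 FPKM (q = 0.0961) per the authors' deposited table. Zfp68 (q = 0.742), Zfp90 (q = 0.851) and Zfp932 (q = 0.556) were not called there. The longest transcript of Zfp932 shares 45.2% of its 50-base words with another gene, so its value is uncertain.

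The next list holds genes for partners of KRAB proteins and, as the one member among them, the KRAB gene Zfp57. Of 34 listed co-repressor genes, 33 were found (Fam208a was not matched), and 19 were called lower, 4 higher and 10 not called in the authors' deposited table. The list's median log2 fold change was -0.39, against -0.12 in tested rows of at least 3 FPKM, of which 32.5% were called lower. Without Zfp57, 18 of 32 were called lower and 4 higher, with a median of -0.37. Trim28, the scaffold that KRAB boxes bind, went from 136 FPKM attached to 64.8 FPKM suspended per the authors' deposited table, 2.10-fold lower. Setdb1, the histone H3K9 methyltransferase that it recruits, stood at 11.4 and 10.6 FPKM (q = 0.772) there. Atf7ip, the partner that stabilizes SETDB1, rose, from 8.62 to 14.7 FPKM per the authors' deposited table, where a second row of the same name was not used.

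HP1 genes fell together: Cbx5 went from 65.0 to 34.5, Cbx1 from 45.6 to 24.6 and Cbx3 from 24.6 to 18.0 FPKM (q = 0.00576) per the authors' deposited table. Several NuRD subunits were called lower. Mbd3 went from 74.9 to 30.7, Hdac1 from 19.0 to 9.24, Mta1 from 29.0 to 15.7 and Chd4 from 69.0 to 39.4 FPKM per the authors' deposited table. Gatad2b went up, from 13.5 to 21.2 FPKM, and Gatad2a, Mta3 and Rbbp4 were not called, in that table. Besides Atf7ip and Gatad2b, the genes called higher were Dnmt3a, a DNA methyltransferase (3.80 to 5.82 FPKM), and Trim24 (14.8 to 19.8 FPKM, q = 0.000831), per the authors' deposited table. Trim28, Mbd3, Hdac1 and Zfp57 were the 4 genes of this list that fell by at least 2-fold.

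Among regulators without a KRAB box and with described roles, 20 of the 24 listed were members. Of these 20, 6 were called higher, 3 lower and 11 not called in the authors' deposited table. Among tested rows of at least 3 FPKM, 24.0% were called higher and 32.5% lower. With 20 genes nothing is read from these counts. Zfp395 went from 3.82 to 7.62, Zfp263 from 8.96 to 15.9, and Zfp503 (NOLZ1), a regulator of striatal development, from 7.52 to 12.7 FPKM in that table. Zfp516, which promotes brown fat, went from 8.03 to 13.7 FPKM, and Zfp644, a partner of the methyltransferases G9a and GLP, from 17.0 to 26.4 FPKM (q = 0.00113) per the authors' deposited table. Zfp217, an oncogene that works with CoREST, went from 15.2 to 11.4 FPKM (q = 0.000982) per the authors' deposited table. Zfp281, a pluripotency factor, went from 13.6 to 9.99 FPKM (q = 0.000355) and Zfp322a from 10.8 to 7.91 FPKM (q = 0.0408) there.

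Zfp143, which binds promoters and chromatin loop anchors, stood at 5.82 and 7.20 FPKM (q = 0.0584) and was not called in the authors' deposited table. Nor were Zfp148 (23.1 and 19.3 FPKM, q = 0.0714) and Zfp384 (15.9 and 14.8 FPKM, q = 0.549) called there. Zfp410 is known for a single main target, Chd4: it stood at 11.8 and 10.2 FPKM (q = 0.169) per the authors' deposited table, beside the fall of Chd4 given above.

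Of 14 listed genes that act on RNA, ribosomes or the spindle, 11 were members, of which 2 were called higher, 2 lower and 7 neither in the authors' deposited table. Among tested rows of at least 3 FPKM 43.5% were not called, and with 11 genes nothing is read from these counts. Zfp622, the counterpart of a yeast factor for maturation of the large ribosomal subunit, went from 19.9 to 36.1 FPKM there. Zfp385a, an RNA-binding protein tied to the p53 response, went from 11.0 to 15.3 FPKM (q = 0.00128) per the authors' deposited table. Zfp598 and Zfp106, described above, were the pair that fell. Zfp326, Zfp330, Zfp346, Zfp830 and Zfp259 had q of 0.0842 to 0.888 in the authors' deposited table.

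With members joined where less than 250 kb separated them, 8 runs held 5 or more. The longest, on chromosome 17 (positions 21383748 to 22456689), held 14 members, all with a KRAB box. Of these 7 were called higher, 1 lower (Zfp52) and 6 neither in the authors' deposited table, and its log2 fold changes ran from -1.04 to 1.14. The 12 with at least 3 FPKM in both conditions held 5 of the higher calls and the lower one. Of tested rows of at least 3 FPKM, 24.0% were called higher and 32.5% lower, and of all members 39.7% and 12.6%. With the level in both conditions, the shares were 21.5% and 33.0% of tested rows and 33.9% and 11.7% of members. Inside this run Zfp52 stood next to Zfp53 (11.8 and 11.3 FPKM, q = 0.715) and Zfp948, neither called, and all 3 lie on 1 stretch of the chromosome with Zfp760 (2.28 to 4.82 FPKM), which rose.

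A further run on chromosome 17 (positions 32771236 to 33394641) held 8 KRAB members, of which 7 were called higher and 0 lower in the authors' deposited table. For 6 of these 7 (Zfp799, Zfp472, Zfp763, Zfp563, Zfp81 and Zfp101) the direction was fixed by the level rule, since they were under 3 FPKM attached and became members through their suspended value. Of these 6, Zfp472 (q = 0.0244), Zfp563 (q = 0.00268) and Zfp101 (q = 0.00852) were called above the smallest q in that table. With at least 3 FPKM in both conditions, Zfp871 (called higher) and Zfp952 (q = 0.851, not called) remain in that run by the authors' deposited table. A run on chromosome 7 (positions 29768552 to 30169727) had 0 of 8 called higher and 3 lower (Zfp30, Zfp27 and Zfp146) in the authors' deposited table, beside 32.5% lower among tested rows of at least 3 FPKM. Zfp30 and Zfp27 were members through their attached value alone, and of the 6 at the level in both conditions 1 was called lower.

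Near Zfp874a and Zfp874b on chromosome 13, the KRAB gene Zfp738 was called higher (3.07 to 6.26 FPKM) and the KRAB gene Zfp748 was not called (q = 0.757) per the authors' deposited table. Another run on chromosome 7 (positions 127233061 to 127895617) had 1 of 7 called higher and 1 lower in the authors' deposited table. The runs of 5 on chromosomes 6 and 9 each had 2 called higher and 0 lower in that table. Each held 1 member under 3 FPKM attached, whose direction the level rule fixed. Of the 4 at the level in both conditions, 2 were called higher on chromosome 6 and 1 on chromosome 9. The run of 5 on chromosome 7 (positions 4915217 to 5060785) had 0 higher and 2 lower in that table. Among tested rows of at least 3 FPKM, 24.0% were called higher and 32.5% lower. The runs described here hold duplicated genes that can share reads, and no difference between runs was tested.

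**Figure D4:**
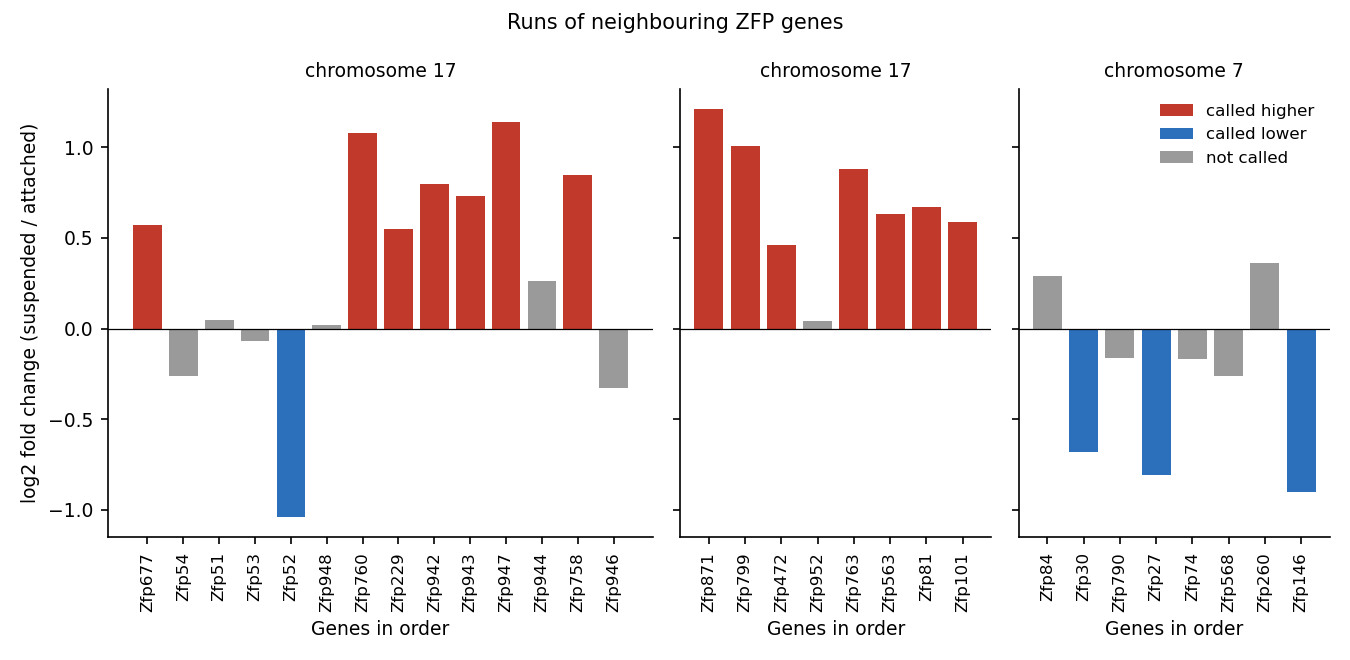
Deposited log2 fold change (suspended over attached) of neighbouring members in their order along the chromosome, for 2 runs on chromosome 17 and 1 on chromosome 7, with bars from 0 coloured by the authors' call. In the second run 7 of 8 bars are called higher, but 6 of those genes were under 3 FPKM attached, so the level rule fixed their direction, and it likewise fixed that of Zfp30 and Zfp27 in the third.

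The words of 213 members were sought in transcripts of other members and in protein-coding transcripts of other genes. Noncoding and pseudogene transcripts of other genes were not searched. In that search 124 members shared no 50-base word with another gene and 89 shared at least 1. Over 20% of their words were shared by 7: Zfp935, Zfp433, Zfp524, Zfp932, Zfp937, Zfp959 and Zfp119b. Rows of 25 members overlapped another tested row, for instance Zfp26, Zfp266 and Zfp426, which are listed with 1 common locus on chromosome 9. Zfp646 and Zfp668 share their locus too and lie on opposite strands. Whether strand was counted is not given in the sources used here, so values of these genes are uncertain.

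Relatives with other names were set beside the members. Of 39 ZBTB, ZKSCAN and ZSCAN rows of at least 3 FPKM, 11 (28.2%) were called higher, 8 (20.5%) lower and 20 neither in the authors' deposited table. Their median log2 fold change was 0.03. Among all tested rows of at least 3 FPKM, 24.0% were called higher and 32.5% lower. One of the 39 relatives, Zbtb8os, is named only for its position opposite a ZBTB gene. Zbtb10 had the largest rise among them (3.42 to 16.0 FPKM) and Zbtb32 the largest fall (5.56 to 1.32 FPKM) in the authors' deposited table. ZFP rows below the level, 98 of which were tested, had 20 higher (20.4%) and 13 lower (13.3%) calls in that table. Over all tested rows of any level, 24.7% were called higher and 26.3% lower. No difference between these groups and the members was tested.

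Facts of the whole comparison stand beside all of these counts. The 8 kidney epithelial markers were all above 30 FPKM in both conditions (sums of 2503 FPKM attached and 2306 suspended), and 5 were called lower and 2 higher in the authors' deposited table. Leukocyte markers summed to 25.7 FPKM attached and 50.7 suspended, with 3 of 4 called higher there, led by Ptprc (1.42 to 12.4 FPKM), while the leukocyte integrin Itgam stood at 0.123 and 0.113 FPKM. All 4 endothelial markers, 3 of 4 fibroblast and 2 of 3 podocyte markers stayed below 1 FPKM in both conditions, and none was at 0 in both. Podxl (1.60 to 7.87 FPKM) and Pdgfra (0.155 to 1.81 FPKM) were called higher in the authors' deposited table. Mitochondrial mt-Cytb went from 1076 to 3310 FPKM there. The part of other cells or of RNA quality in the ZFP values was not tested.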

How the data were processed

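RNA was sequenced from 3 attached and 3 suspended libraries. Per the submitters' processing notes, TopHat, Bowtie, Cufflinks 1.0.3 and Cuffdiff were used with mm10. The deposited FPKM are the authors' single value per condition. Their log2 fold change, score, p-value and q-value columns were also deposited by the authors, per the file headers, and q was used as given. Columns ending in A and S were read as attached and suspended. Depth is unknown. No test over libraries could be run.

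Members and lists were chosen with earlier results of these data known. Named are the 12 largest called rises and falls, the 6 highest means, the 4 nearest to 0 and the listed genes. Starts in the deposited positions count from 0 and were raised by 1. GENCODE M21 (GRCm38) coding sequences were translated, taking the longest protein for fingers and any isoform for KRAB. KRAB weights over 38 residues were learnt from 234 proteins, with a score of at least 60 (log2 odds) required, and 5 members scored between 0 and 60. No protein table was used, although the design assumed one. This was not the first KRAB definition: a fixed pattern was tried first and its fold changes were seen, it was replaced because it missed known KRAB proteins, and the score limits of 60 and 0 were set after seeing the scores and the calls. The 21 promoter motifs, the 3 promoters shown, the 250-kb gap, the run size of 5, the 50-base words, their 20% limit and the protein pairs were likewise chosen after seeing the data. With no values per library, counts and medians that moved by up to 1.5 times were taken as kept. The adjustment and pattern searches were tested on simulated data. Python 3.11.15, NumPy 2.4.6 and pandas 2.3.3 were used. Alternatives changed the q threshold, fold, adjustment, level, scaling, pseudocount, KRAB score, and overlapping or shared genes. One item is not reported here.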

Additional observations from a re-analysis of the deposited data

How the results depend on the processing

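With a 2-fold change required, 19 members were called higher and 6 lower, against 85 and 27, and in the co-repressor list 0 were called higher and 4 lower, against 4 and 19. Under the other alternatives the members called ranged from 61 to 101 higher and from 20 to 38 lower. The members' median log2 fold change lay between 0.20 and 0.36, the latter after subtracting the median of -0.11 over genes with 1 FPKM or more on both sides. The medians of KRAB members (0.26 to 0.34) and of other members (0.15 to 0.21) kept their order under the looser KRAB score, the KRAB pattern tried first, the level in both conditions and the removal of shared sequences. A pseudocount of 1 shrank none of the 24 largest changes by over 1.5 times. The level in both conditions, the removal of members sharing sequence and the first KRAB pattern were added after seeing the data. Leaving out a library, another normalization or another test needs values per library and was not run. No paired analysis was possible because only 1 value per condition was used. The smallest deposited p is 5e-05, so calls at that floor are not ranked by p.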
